A study of Mus musculus with 15 samples.

Results

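The 8 genes of the TRiC chaperonin, Tcp1, Cct2, Cct3, Cct4, Cct5, Cct6a, Cct7 and Cct8, were followed through RNA-seq of CD8+ T cells primed with antigen (Ag) or with antigen and costimulation (Ag+Costim). The members were chosen by gene symbol and matched to 8 of the 55536 gene identifiers of the count table, to 67 of its 141862 transcripts and to 116 of 138940 splicing events. All 8 genes passed the filter on low counts, which kept 24262 genes, and 63 of their 67 transcripts had a count in some library.

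The cells were OT-I CD8+ T cells, which carry a transgenic T cell receptor for an ovalbumin peptide, transferred into C57BL/6J mice. Both groups received the peptide. The Ag group was given rat IgG with it, per the study's methods, and the Ag+Costim group was given agonist antibodies against the costimulatory receptors OX40 (CD134) and 4-1BB (CD137). Donors were T cell receptor transgenic animals of both sexes on a Rag-deficient background, and no gene was deleted or edited in one group alone. Spleen and lymph nodes were taken on day 4 by the labels (slightly earlier in the study's text), and the transferred CD8+ cells were sorted. Each group held 5 libraries, made from poly(A) RNA by a template-switching kit that keeps no strand. Naive libraries were not analysed here.

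TRiC, also called CCT, is a chaperonin of the cytosol that encloses unfolded proteins in a chamber and folds them at the cost of ATP. Its stacked rings each hold 1 copy of 8 related subunits, so the genes are needed side by side. Actin and tubulin are its best known clients, along with activators of the anaphase-promoting complex and other proteins with WD40 repeats, and dividing cells, activated T cells among them, carry much of it.

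Library totals were 59598556 estimated counts in Ag replicate 3, and between 259558848 and 639070261 in the other 9 libraries. The Ag libraries differed among themselves far more than the Ag+Costim libraries. In a limma voom fit that gives every library a weight by its quality, Ag replicates 2 and 5 got weights of 0.0986 and 0.0656 and Ag replicate 3 got 0.508, against 1.42 and 2.00 for Ag replicates 1 and 4 and 1.70 to 3.35 for Ag+Costim. Genes with a count numbered 20714 to 51778 in Ag and 28727 to 30340 in Ag+Costim. Of the markers of other cells, the summed level of 6 erythroid genes reached 1103 CPM in Ag replicate 3 and 14.7 to 126 CPM in the other Ag libraries, against 3.80 to 39.8 CPM in Ag+Costim. The sum of 6 B cell genes was 643 to 1179 CPM in Ag and 515 to 764 CPM in Ag+Costim, the sum of 6 myeloid genes 47.8 to 140 and 81.2 to 172 CPM, and that of 3 CD4 T cell genes 3.66 to 25.8 and 3.07 to 7.48 CPM. None of these markers was at 0 in every library. Gene by gene, the sums hide differences. By edgeR, all 6 B cell genes and all 6 erythroid genes had a fold change below 0, Ag+Costim against Ag. Their median log2 fold changes were -2.61 and -3.88. Of the 6 myeloid genes 4 were above 0, and all 3 CD4 T cell genes were below 0. The 7 CD8 T cell genes, Cd8a and Cd8b1 included, were present in every library and summed to 4233 to 8117 CPM in Ag and 5870 to 6869 CPM in Ag+Costim. The part of these differences in the values below was not tested.

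All 8 TRiC subunits had a higher mean level in Ag+Costim than in Ag, by 0.46 to 0.80 on the log2 scale, and none passed the main test. In bulk RNA, fewer cells of a kind and less RNA per cell cannot be told apart. Levels are given as CPM, counts scaled to a common library total with TMM factors, which compare 1 gene between libraries and not genes with each other. The Ag libraries were split for every subunit in the same way, with replicates 1 and 4 low, replicate 3 between, and replicates 2 and 5 near the Ag+Costim libraries.

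Tcp1, the alpha subunit, was at 140, 591, 361, 166 and 702 CPM in Ag replicates 1 to 5 and at 611, 595, 581, 774 and 649 CPM in Ag+Costim replicates 1 to 5. Cct6a, the zeta subunit, was at 149, 568, 374, 162 and 638 CPM in Ag and at 603, 583, 594, 845 and 665 CPM in Ag+Costim. For Tcp1, 3 of 5 Ag libraries lay below every Ag+Costim library, and for Cct6a 4 of 5 did, with only Ag replicate 5 inside the Ag+Costim range. Cct8, the theta subunit, was at 216, 722, 432, 227 and 840 CPM in Ag and at 753, 729, 693, 977 and 794 CPM in Ag+Costim. Cct7, the eta subunit, was at 219, 775, 449, 240 and 895 CPM in Ag and at 708, 730, 730, 962 and 814 CPM in Ag+Costim. Both again had replicates 1, 3 and 4 of Ag below the whole Ag+Costim group, and replicates 2 and 5 within it.

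The epsilon subunit Cct5 was at 267, 845, 489, 289 and 1032 CPM in Ag and at 822, 818, 787, 1016 and 874 CPM in Ag+Costim, so its highest library was one of Ag. The gamma subunit Cct3 was at 165, 504, 288, 172 and 569 CPM in Ag and at 438, 451, 511, 600 and 502 CPM in Ag+Costim. Cct4, the delta subunit, was at 147, 420, 261, 156 and 467 CPM in Ag and at 402, 384, 376, 515 and 431 CPM in Ag+Costim. In both, the low and high Ag libraries were those of the other subunits. Cct2, the beta subunit, had the smallest spread, with 153, 356, 228, 176 and 423 CPM in Ag and 361, 350, 338, 418 and 375 CPM in Ag+Costim. Ag replicate 5 was above all Ag+Costim libraries for Cct2 and Cct5 alone among the 8.

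**Figure D1:**
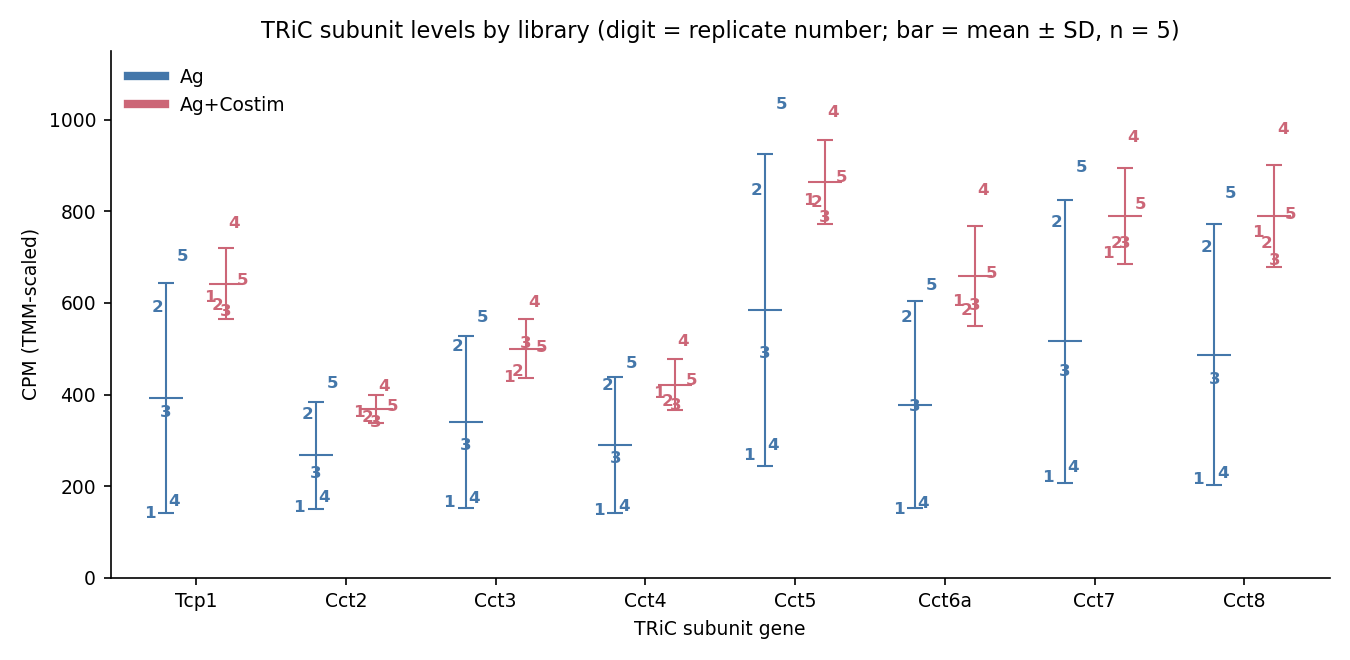
Level of each TRiC subunit in every library, in CPM scaled with TMM factors on a linear axis. Digits give the replicate number of Ag (blue) and Ag+Costim (red) libraries, and bars give the mean ± SD of 5 libraries. For all 8 genes Ag replicates 1 and 4 lie lowest, and Ag replicates 2 and 5 lie highest of the Ag libraries, next to the Ag+Costim libraries.

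The mean of Tcp1 was 392 CPM ± 251 (SD, n = 5) in Ag and 642 CPM ± 78.0 (SD, n = 5) in Ag+Costim, a fitted log2 fold change of 0.71 ± 0.41 (SE). Cct6a had the largest fold change, 0.80 ± 0.40 (SE), from 378 CPM ± 225 (SD, n = 5) to 658 CPM ± 109 (SD, n = 5). Cct2 had the smallest, 0.46 ± 0.27 (SE), from 267 CPM ± 117 (SD, n = 5) to 368 CPM ± 30.8 (SD, n = 5). The log2 fold changes of the others were 0.70 ± 0.37 (SE) for Cct8, 0.61 ± 0.38 for Cct7, 0.56 ± 0.36 for Cct5, 0.56 ± 0.35 for Cct3 and 0.54 ± 0.32 for Cct4.

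With edgeR's quasi-likelihood test and Benjamini-Hochberg (BH) adjustment over all genes, the adjusted p of the 8 subunits lay between 0.284 (Cct6a) and 0.353 (Cct5), so 0 of 8 passed 0.05. Over all genes, 0 of 24262 (0%) passed. At an unadjusted p under 0.05, edgeR again held 0 of the 8, while 1915 genes, 7.89% of those tested, were higher in Ag+Costim at that level. The DESeq2 Wald test also called 0 of 8, with adjusted p between 0.122 (Cct6a) and 0.241 (Cct5) and 0 of 8 at an unadjusted p under 0.05, and over all 43379 genes it tested it called 778 higher, 1.79%.

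The weighted limma voom fit called all 8 higher, with log2 fold changes from 1.05 ± 0.13 (SE) for Cct2 to 1.83 ± 0.20 for Tcp1 and 1.83 ± 0.21 for Cct6a and adjusted p between 2.97e-05 and 4.84e-05. That fit called 6254 genes higher, 25.8% of those tested. Its weights lower the part of Ag replicates 2 and 5, in which the subunits were at the Ag+Costim level, and raise that of Ag replicates 1 and 4, in which they were lowest. In limma voom without weights, a fit added after seeing the data, the log2 fold changes were 0.57 to 1.04 with adjusted p between 0.241 (Cct6a) and 0.318 (Cct2). It called 0 of 8 and 0 of all genes (0%), while 7 of 8 subunits, all but Cct2, and 3064 genes, 12.6%, were higher at an unadjusted p under 0.05. All 4 fits gave 1 direction for every subunit, and within limma voom the call was made with the weights and not without them.

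**Figure D2:**
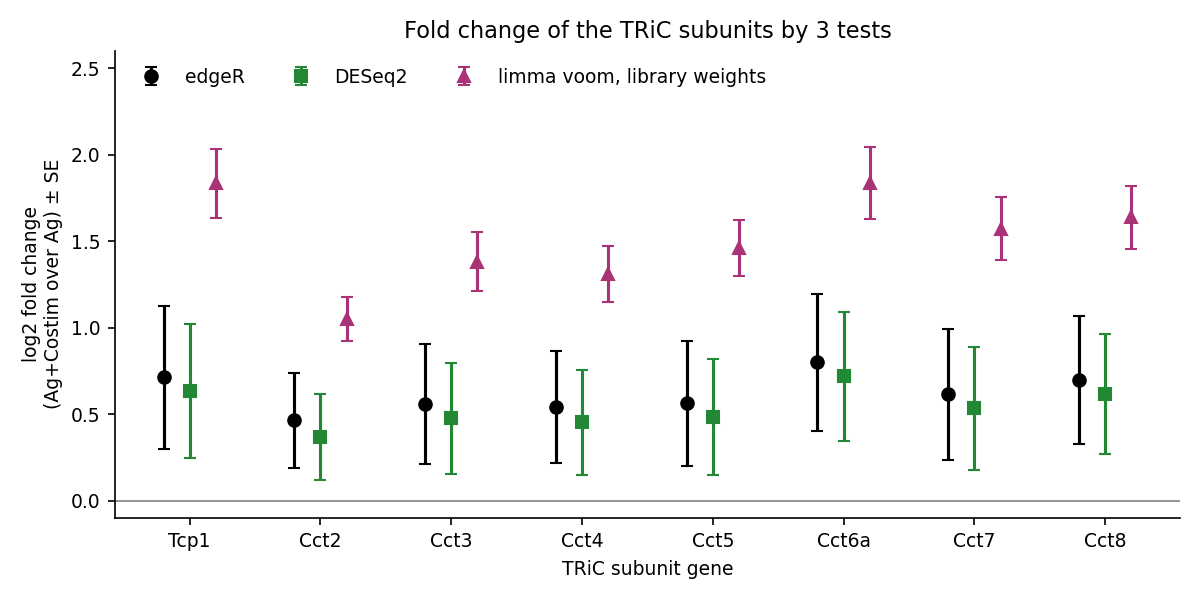
Log2 fold change of each subunit, Ag+Costim over Ag, with its standard error, by edgeR (circles), DESeq2 (squares) and limma voom with library weights (triangles). The edgeR values run from 0.46 to 0.80 and the weighted values from 1.05 to 1.83.

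A fold change above 0 was found for 9145 of the 24262 genes, 37.7%, and for 6520 of the 8626 genes that averaged at least 10 CPM, 75.6%. The median of those 8626 genes was itself 0.24 on the log2 scale, and the median of the 8 subunits was 0.59, which is 0.35 above it. With library totals alone the median of the 8626 genes was 0.00 and that of the subunits 0.45, and with upper quartile factors the medians were 0.02 and 0.41. All 8 subunits were above the median of the expressed genes under each of these scalings.

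No subunit separated the groups completely by TMM-scaled CPM. There, 1086 of the 24262 genes, 4.48%, were higher in every Ag+Costim library than in every Ag library. Of the 8626 genes that averaged at least 10 CPM, 976 were, 11.3%. On TPM, which divides each transcript's count by its length, Tcp1 and Cct8 were higher in all 5 Ag+Costim libraries. So were 1196 of all genes, 4.93%, and 1104 of the 8626 expressed genes, 12.8%. Tcp1 was at 135, 371, 303, 160 and 359 TPM in Ag against 424, 421, 407, 529 and 438 TPM in Ag+Costim. Cct8 was at 203, 432, 338, 199 and 433 TPM in Ag against 491, 478, 444, 617 and 519 TPM in Ag+Costim. With library totals alone, Cct6a was the 1 subunit without overlap, among 670 such genes, 2.76% of all. Of the expressed genes 7.28% were such genes.

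The spread within Ag was wide for these genes. The coefficient of variation of the subunits had a median of 58.4% over the Ag libraries and 13.0% over the Ag+Costim libraries, where the 8626 expressed genes had medians of 32.2% and 8.54%. The highest Ag library exceeded the lowest by 2.77-fold for Cct2 to 5.0-fold for Tcp1, and the highest Ag+Costim library exceeded the lowest by 1.23-fold to 1.45-fold.

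The summed level of cell cycle genes was split among the Ag libraries as the subunits were. The sum of 15 cell cycle genes, among them Mki67, Top2a and Cdk1, was 990, 8364, 5088, 1040 and 9403 CPM in Ag replicates 1 to 5, and 8482, 8603, 8146, 10315 and 9445 CPM in Ag+Costim. The sum of the 8 subunits was 1510, 3167, 2486, 1569 and 3234 TPM in Ag and 3339, 3314, 3240, 4189 and 3607 TPM in Ag+Costim. In both sums Ag replicates 1 and 4 were lowest, Ag replicate 3 was next, and Ag replicates 2 and 5 were close to or within the Ag+Costim range. Single genes of the sum could differ from it, such as Mki67, a marker of dividing cells, at 93.4, 402, 241, 98.3 and 222 CPM in Ag replicates 1 to 5 and at 416 to 469 CPM in Ag+Costim. Other traits of the Ag libraries were split too. Genes with a count numbered 48058, 21779, 51778, 40441 and 20714 in Ag replicates 1 to 5. The sum of 6 B cell genes was 975, 643, 895, 1179 and 754 CPM in them. Both were lower in Ag replicates 2 and 5 than in Ag replicates 1, 3 and 4. The part of the cell cycle or of these traits in the subunits' levels was not tested.

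**Figure D3:**
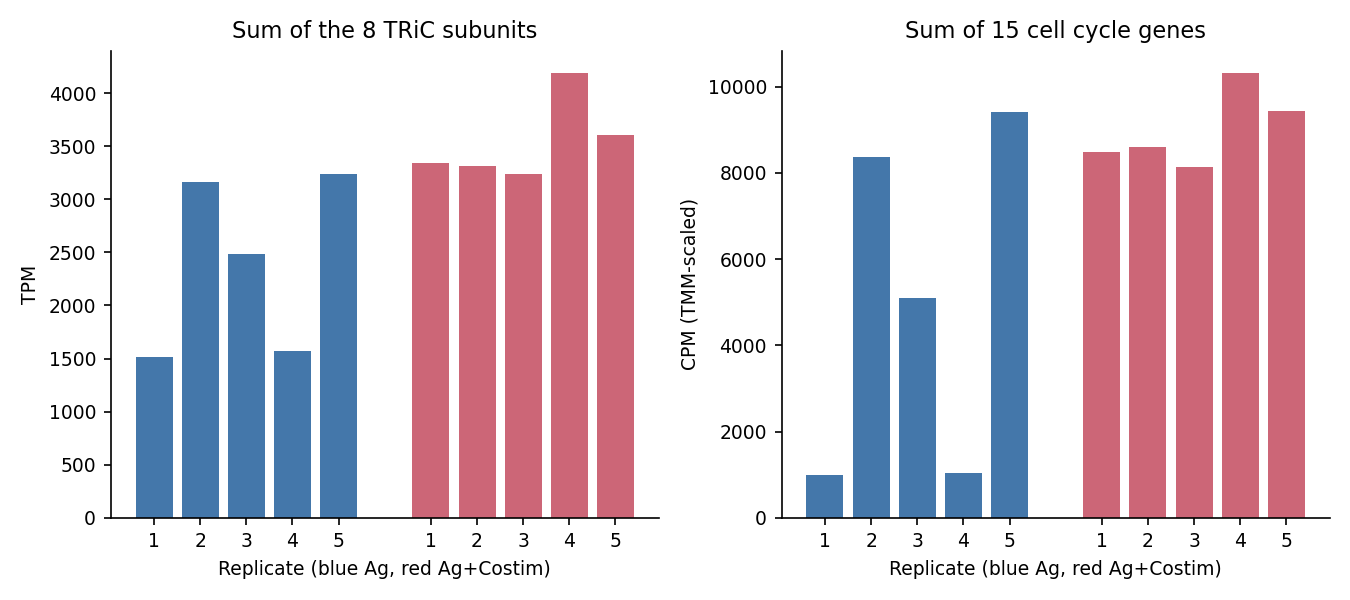
Summed level of the 8 TRiC subunits in TPM (left) and of 15 cell cycle genes in CPM (right), 1 bar per library on axes from 0, Ag in blue and Ag+Costim in red. Ag replicates 1 and 4 are lowest in both, at 1510 and 1569 TPM and at 990 and 1040 CPM.

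While the total moved by 2.77-fold from the lowest to the highest library, the proportions of the subunits moved less. The highest share of a subunit exceeded its lowest by 1.08-fold for Cct5 to 1.42-fold for Tcp1 and 1.57-fold for Cct2. Per length, Cct5 was the most abundant in every library, at 493 TPM ± 173 (SD, n = 5) in Ag and 714 TPM ± 67.7 (SD, n = 5) in Ag+Costim, and Cct4 had the lowest mean, at 189 TPM ± 52.4 (SD, n = 5) and 265 TPM ± 29.8 (SD, n = 5). By mean TPM the order was Cct5, Cct8, Cct7, Cct6a, Tcp1, Cct3, Cct2 and Cct4. Cct5 exceeded Cct8 in 10 of 10 libraries, by 1.47-fold on average, and Cct2 exceeded Cct4 in 10 of 10, by 1.15-fold. Cct8 and Cct7 could not be ordered, since each was the higher in 5 of 10 libraries. Cct7 was above Cct6a, Cct6a above Tcp1 and Cct3 above Cct2 in 9 of 10 libraries each, and Tcp1 was above Cct3 in 8 of 10. The highest subunit exceeded the lowest by 2.38-fold to 2.97-fold within a library.

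As a share of the summed TPM, Cct5 held 19.7% to 21.3% over the 10 libraries. Cct7 held 12.8% to 14.3% and Cct4 7.10% to 8.94%. Cct8 held 13.5%, 13.6%, 13.6%, 12.7% and 13.4% in Ag and 14.7%, 14.4%, 13.7%, 14.7% and 14.4% in Ag+Costim, the 1 subunit whose share did not overlap between groups, and the gap was small. Cct2 held 11.8% and 12.1% in Ag replicates 1 and 4 and 7.70% to 8.83% in the other 8 libraries. Tcp1 held 8.95% and 10.2% in those 2 Ag libraries and 11.1% to 12.7% in the others. The Ag libraries low in TRiC were thus relatively rich in Cct2 and poor in Tcp1. Mean shares differed between groups by 1.72 percentage points for Tcp1, -1.60 for Cct2, 1.04 for Cct8 and less than these for the other 5, with no test.

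**Figure D4:**
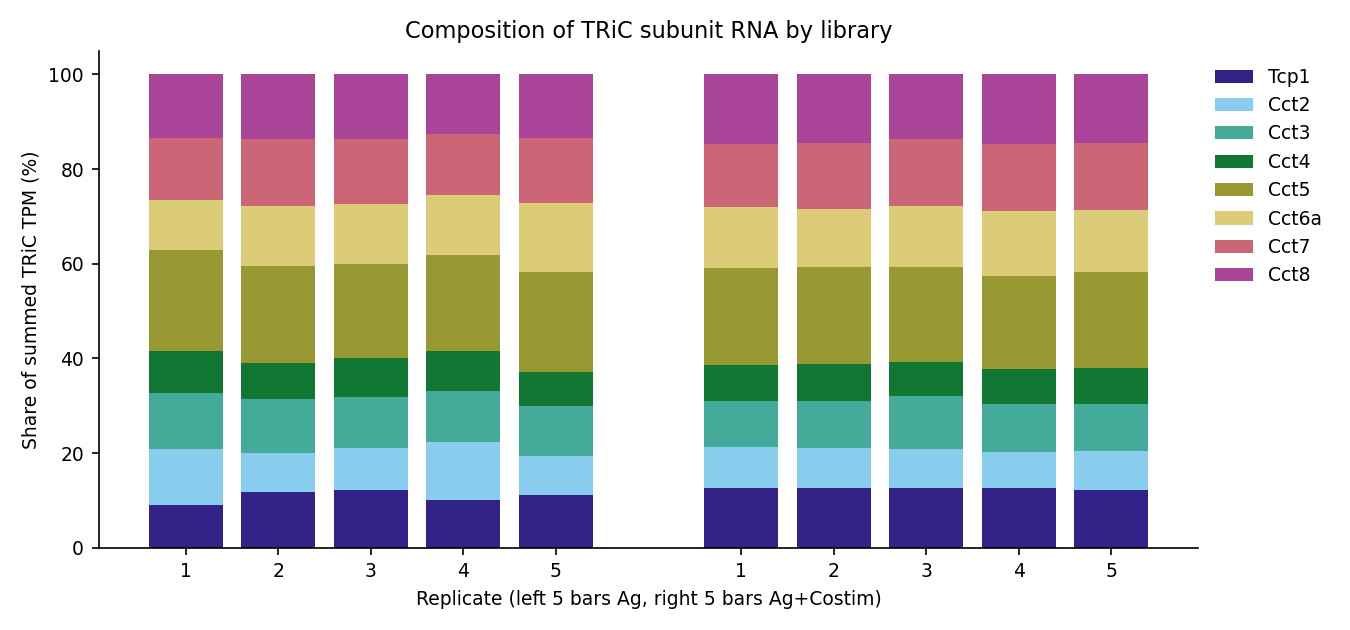
Share of each subunit in the summed TPM of the 8 subunits, in percent, 1 stacked bar per library with Ag at left and Ag+Costim at right. Cct5 holds 19.7% to 21.3% in every library, and the share of Cct2 is largest in Ag replicates 1 and 4, at 11.8% and 12.1%.

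Over the 10 libraries, Pearson's r between the log2 CPM of any 2 subunits lay between 0.976 and 0.998 over 28 pairs. The points share the library and its split in Ag. Of 8618 other genes with 10 CPM or more, 2676 had an r over 0.9 with the mean of the subunits. An r over 0.9 with that mean was thus common. The count used the mean of the subunits and a lower bound than the r of the pairs. The 5 genes with the highest r, each 0.998 or 0.999, were Hmga1, a chromatin architectural protein, Adsl and Paics, enzymes of purine synthesis, Ppm1g, a protein phosphatase, and Eif2s1, a subunit of the translation initiation factor eIF2. Paics was at 317 CPM ± 189 (SD, n = 5) in Ag and 489 CPM ± 56.6 (SD, n = 5) in Ag+Costim, and Hmga1 at 102 CPM ± 69.8 and 167 CPM ± 25.6.

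Since the subunits moved together across libraries, their promoters are shown. The RefSeq table of mouse promoters (GRCm38.p6, 250 bases before to 50 bases after the start) held 9 windows of 7 members. Cct4 had no entry. The windows of Tcp1, Cct6a, Cct7 and Cct8 are printed 5′ to 3′ on the strand of the gene, and capitals mark the letters GAANNTTC (the core of a heat shock element), CACGTG (an E-box), CCAAT (the box named by these letters), GGGCGG (a GC box) and CCGGAAG (an ETS site), sought on both strands.
Tcp1, chr17:12916079-12916378, plus strand: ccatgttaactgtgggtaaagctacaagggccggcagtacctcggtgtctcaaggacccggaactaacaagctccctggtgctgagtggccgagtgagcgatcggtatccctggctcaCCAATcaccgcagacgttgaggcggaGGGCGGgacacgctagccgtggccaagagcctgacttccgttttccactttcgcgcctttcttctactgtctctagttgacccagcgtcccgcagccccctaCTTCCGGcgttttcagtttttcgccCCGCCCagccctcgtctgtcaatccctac
Cct6a, chr5:129787106-129787405, plus strand: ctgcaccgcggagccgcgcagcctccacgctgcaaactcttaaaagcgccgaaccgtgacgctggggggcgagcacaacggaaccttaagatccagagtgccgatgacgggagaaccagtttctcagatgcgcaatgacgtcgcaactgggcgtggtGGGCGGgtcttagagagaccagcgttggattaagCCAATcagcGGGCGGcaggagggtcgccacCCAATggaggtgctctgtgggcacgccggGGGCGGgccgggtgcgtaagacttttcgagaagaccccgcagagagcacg
Cct7, chr6:85451255-85451554, plus strand: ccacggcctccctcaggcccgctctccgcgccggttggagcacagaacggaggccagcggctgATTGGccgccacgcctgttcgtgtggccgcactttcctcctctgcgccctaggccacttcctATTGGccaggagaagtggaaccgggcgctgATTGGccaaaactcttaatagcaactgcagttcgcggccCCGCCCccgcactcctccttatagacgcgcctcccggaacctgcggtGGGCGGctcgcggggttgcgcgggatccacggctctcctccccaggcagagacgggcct
Cct8, chr16:87495820-87496119, minus strand: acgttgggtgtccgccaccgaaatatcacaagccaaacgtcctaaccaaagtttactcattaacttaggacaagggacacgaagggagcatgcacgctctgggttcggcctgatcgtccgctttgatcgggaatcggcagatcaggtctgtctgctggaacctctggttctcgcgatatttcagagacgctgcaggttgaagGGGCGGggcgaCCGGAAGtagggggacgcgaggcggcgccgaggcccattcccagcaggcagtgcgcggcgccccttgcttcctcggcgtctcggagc

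A GC box was in 8 of the 9 windows, at least 1 for each of the 7 members, and in 35.7% of all 32851 promoters of that length. CCAAT was in 4 of the 9 windows, those of Tcp1, Cct3, Cct6a and Cct7, and in 37.4% of all. The ETS letters were in 3 of the 9 windows, those of Tcp1 and Cct8 and 1 of the 2 of Cct2, and in 8.86% of all. The heat shock letters were found for Cct2 alone, in 1 of its 2 windows, and in 7.86% of all promoters, and the E-box for none, against 7.15% of all. These are matches of letters and say nothing of what binds there.

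Transcript usage, the split of a gene's count among its annotated transcripts, was called different for 1 member, Cct6a. edgeR's diffSpliceDGE with a gene-level Simes test gave Cct6a an adjusted p of 1.70e-04, with a largest change of 23.5 percentage points in mean share. The Cct6a transcripts were named when this family was chosen, with earlier results of these data known. This p therefore describes Cct6a and is no independent support. A call needed an adjusted p under 0.05 and a change of at least 10 points, and 29 of 10442 genes, 0.278%, met both. With limma's diffSplice Cct6a was not called (adjusted p = 0.427) and Cct3 was (adjusted p = 3.00e-04), in a test that called 1.35% of the genes. The adjusted p of Cct3 by the first test was 0.0814.

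Cct6a lies at chr5:129786998-129846371 (mm10, plus strand), and the annotation used by the authors holds it as a processed transcript with no coding sequence given. Cct6a-202, of 2454 bases and 13 exons, held 95.0%, 95.0%, 96.9%, 41.8% and 39.1% of the gene's count in Ag replicates 1 to 5 and 96.7% to 97.3% in Ag+Costim. Cct6a-201, of 1599 bases and 15 exons, held 53.8% and 56.6% in Ag replicates 4 and 5, and at most 0.125% in each of the other 8 libraries. In estimated counts, Cct6a-201 had 28107 and 133931 in Ag replicates 4 and 5 and 7 to 31 in the other 3 Ag libraries. The difference therefore rested on 2 of 5 Ag libraries, one low and one high in TRiC. An exact permutation test over all assignments of the libraries to groups, two-sided, gave p = 0.270 for the share of Cct6a-201 and p = 0.0238 for that of Cct6a-202, where 0.00794 is the smallest p possible. For Cct6a-202 the exact permutation p was 0.183 to 0.190 when any 1 Ag+Costim library was left out. Shares of 18 transcripts were compared in this way, 6 of them with p under 0.05, and these p are not adjusted. The 18 include the transcript with the largest change of each gene, and shares within a gene depend on each other. No such count was made over all transcripts, so 6 of 18 is not read as a result. Cct6a-203, a retained intron form, held 2.68% to 4.90% in Ag and 2.48% to 3.24% in Ag+Costim, and the other 4 transcripts held under 0.4% in every library.

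Cct6a-201 differs from Cct6a-202 within the gene by 2 exons, of 13 bases at chr5:129794635-129794647 and of 124 bases at chr5:129844813-129844936, parted by an intron of 50165 bases and followed by one of 33 bases. They are shown because they are what sets the 2 transcripts apart, with the 2 exons in capitals between the 20 bases before and the 20 bases after, above the same place in Cct6a-202.
Cct6a-201: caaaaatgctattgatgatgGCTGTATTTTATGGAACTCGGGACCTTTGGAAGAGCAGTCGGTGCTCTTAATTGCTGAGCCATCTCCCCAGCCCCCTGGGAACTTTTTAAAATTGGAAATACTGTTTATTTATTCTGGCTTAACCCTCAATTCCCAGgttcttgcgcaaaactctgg
Cct6a-202: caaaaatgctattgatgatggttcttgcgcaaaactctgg

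Of the 118 words of 20 bases within those exons, 40 occurred, on either strand, in annotated transcripts of 354 other genes, so part of the stretch is repeated across the transcriptome. Cct6a-201 also starts and ends inside Cct6a-202. Whippet, which the authors ran on the reads and which gives 1 percent spliced in (PSI, a fraction of 0 to 1) per group, listed 11 core exons of Cct6a, each at a PSI of 0.999 or more in both groups, and the values of both groups differed by at most 5.40e-04. The 2 exons of Cct6a-201 shown above were not among those 11 and had no PSI. These PSI values thus do not measure the split between Cct6a-201 and Cct6a-202. The whole gene overlaps Psph on the opposite strand, and reads of the overlap cannot be assigned by strand.

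Cct3, at chr3:88297116-88321767 (mm10, plus strand), showed a split that followed the groups. Cct3-201, its main coding transcript, held 80.4%, 95.7%, 92.3%, 80.3% and 94.0% of the count in Ag and 53.5%, 68.7%, 70.5%, 75.9% and 65.7% in Ag+Costim. Cct3-206, annotated as a retained intron form without coding sequence, held 5.99%, 0.959%, 3.37%, 11.3% and 3.67% in Ag and 17.5%, 19.6%, 18.7%, 20.7% and 22.3% in Ag+Costim. For both transcripts the groups did not overlap in these shares of the count. How many of all transcripts separate the groups in this way was not counted. The mean share of Cct3-206 was 5.05% ± 3.91 (SD, n = 5) in Ag and 19.7% ± 1.85 (SD, n = 5) in Ag+Costim, and that of Cct3-201 was 88.5% ± 7.57 and 66.8% ± 8.34. The exact permutation test gave p = 0.00794 for each, two-sided, the smallest it can give. Cct3-206 is longer than Cct3-201, at 3335 against 1977 bases. With counts divided by length, the share of Cct3-206 averaged 3.08% for Ag against 12.6% for Ag+Costim. That is a difference of 9.50 percentage points in place of 14.7 (exact permutation p = 0.00794, two-sided). The share of Cct3-201 then averaged 89.9% and 71.9% (exact permutation p = 0.0159, two-sided). This p is above the smallest possible, so the groups then overlapped for Cct3-201. In edgeR's test of single transcripts Cct3-206 had a log2 difference in usage of 1.75 and an adjusted p of 0.0484.

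Cct3-206 keeps the sequence between the second and the fourth exon of Cct3-201 as 1 exon of 1650 bases, chr3:88299342-88300991, and has an exon of 284 bases at chr3:88313091-88313374 where Cct3-201 has one of 133 bases. The summed share of all 5 retained intron transcripts of Cct3 was 8.82% ± 6.02 (SD, n = 5) in Ag and 21.7% ± 1.47 (SD, n = 5) in Ag+Costim. For the other members with such transcripts it was lower on average in Ag+Costim. The means were 4.33% and 2.92% for Cct6a, 3.33% and 1.71% for Tcp1, 1.30% and 0.352% for Cct4, and under 0.8% in both groups for Cct5, Cct7 and Cct8. Whippet listed 1 retained intron among the members, chr3:88321146-88321443 in Cct3, at a PSI of 0.0102 (Ag) against 2.54e-04 (Ag+Costim). That intron lies outside the stretch which Cct3-206 keeps.

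Cct3-204, which skips 2 coding exons of 51 and 63 bases, had a share of 0 in all 5 Ag libraries. Its shares were 20.8%, 9.16%, 7.95%, 0% and 9.29% in Ag+Costim (exact permutation p = 0.0476, two-sided). It was named only because its mean share passed 5% in Ag+Costim, the group where it was high. This p is therefore no support for a difference. Whippet gave the same exons a PSI close to 1 in both groups. Over the transcripts, per length, the inclusion of these exons was 100% in every Ag library and between 75.8% and 100% in Ag+Costim. The estimates of transcript shares and the exon counts of Whippet therefore differed for Cct3 in Ag+Costim, and the cause was not tested. The 2 exons are shown in capitals as they stand in Cct3-201, chr3:88300800-88300850 and chr3:88300929-88300991, above the junction of Cct3-204.
Cct3-201: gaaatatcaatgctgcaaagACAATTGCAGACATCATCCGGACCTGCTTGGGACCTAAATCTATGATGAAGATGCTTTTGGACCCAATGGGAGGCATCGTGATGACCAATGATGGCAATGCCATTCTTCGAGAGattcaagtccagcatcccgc
Cct3-204: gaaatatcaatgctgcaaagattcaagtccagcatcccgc

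These exons hold 114 coding bases. Of their 95 words of 20 bases, 50 were also in annotated transcripts of 3 other genes, and a processed pseudogene of Cct3, Cct3-ps1, is annotated on chromosome 4, so reads of Cct3 may be shared with copies.

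Tcp1, at chr17:12915701-12925067 (mm10, plus strand), was divided between 2 coding transcripts. Tcp1-209 held 71.2%, 73.6%, 61.6%, 41.2% and 91.0% in Ag and 61.2%, 58.5%, 57.8%, 59.2% and 73.4% in Ag+Costim. Tcp1-201 held 22.6%, 25.4%, 36.4%, 51.9% and 7.49% in Ag and 36.5%, 40.0%, 40.8%, 39.1% and 24.5% in Ag+Costim. Libraries of both groups overlapped widely, with exact permutation p = 0.556 and p = 0.325, two-sided. Tcp1-209 has a coding exon of 86 bases, chr17:12917798-12917883, that Tcp1-201 lacks. It is shown in capitals with the 20 bases on each side, above the junction of Tcp1-201.
Tcp1-209: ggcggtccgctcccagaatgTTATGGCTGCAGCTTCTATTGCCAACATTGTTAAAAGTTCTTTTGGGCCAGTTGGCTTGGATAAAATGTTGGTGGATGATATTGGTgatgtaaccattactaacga
Tcp1-201: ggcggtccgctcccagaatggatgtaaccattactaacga

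By Whippet the PSI of this exon was 0.889 for Ag against 0.876 for Ag+Costim, the lowest of the 91 core exons of the members in both groups. The other 90 core exons had a PSI over 0.99 in both groups. Over the transcripts, per length, the exon was included at 66.4% ± 18.2 (SD, n = 5) in Ag and 58.0% ± 7.14 (SD, n = 5) in Ag+Costim, below its PSI in both.

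Of the 116 events of the members, 2 had a PSI difference over 0.05, where 16550 of all 138940 events, 11.9%, had one. Both were starts of Tcp1. The first start, chr17:12916329-12916381, stood at a PSI of 0.579 with Ag against 0.521 with Ag+Costim. The second, chr17:12916382-12916438, stood at 0.410 against 0.474. The 2 starts are alternatives to each other, so they are not independent events. Tcp1-201 begins at the first and Tcp1-209 at the second. Their mean transcript shares went the other way, from 28.8% to 36.2% and from 67.7% to 62.0%, with wide overlap. The cause was not tested. The next largest difference was at the first start of Cct4, chr11:22990519-22990649, with 0.413 and 0.441. The largest differences were 0.00996 for Cct3, 0.00650 for Cct7, 9.00e-04 for Cct8, 5.40e-04 for Cct6a, 3.00e-04 for Cct2 and 1.30e-04 for Cct5. These PSI values have 1 number per group and no replicates, so no test was made.

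Each of the other 5 subunits was read from 1 dominant transcript. Cct5-201, Cct7-201, Cct8-201 and Cct2-201 held 97.3% to 99.9% of the count in every library. Cct4-204 held 97.1% to 99.7% except in Ag+Costim replicate 2, where it held 86.3% and Cct4-201 held 13.0%. Cct4-201 was at 0 in all Ag libraries and in Ag+Costim replicates 3 and 4, and at 2.29% and 1.17% in Ag+Costim replicates 1 and 5.

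**Figure D5:**
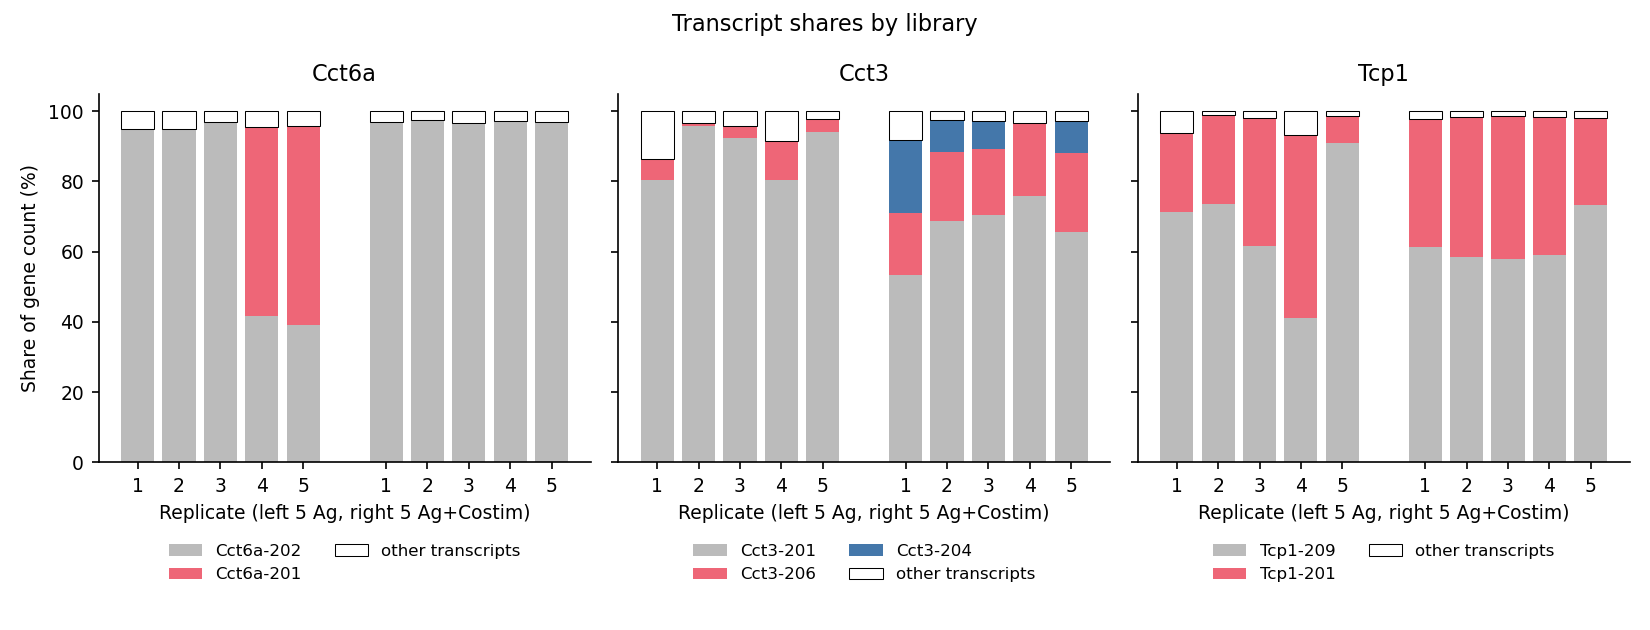
Share of each gene's count held by named transcripts of Cct6a, Cct3 and Tcp1, in percent, 1 stacked bar per library with Ag at left and Ag+Costim at right. Cct6a-201 is large enough to be seen in Ag replicates 4 and 5 alone, at 53.8% and 56.6%, and Cct3-206 is at 17.5% to 22.3% in Ag+Costim against at most 11.3% in Ag.

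The partners and clients of TRiC are given by lists, none of which held a gene called by edgeR. Prefoldin, which hands clients to TRiC, had 5 of 6 subunits with a fold change above 0 and a median of 0.29 on the log2 scale, against 0.59 for TRiC and 0.24 for the expressed genes. Its largest fold change was that of Vbp1, 0.54 ± 0.28 (SE), from 112 CPM ± 50.2 (SD, n = 5) to 164 CPM ± 12.7 (SD, n = 5), and its smallest that of Pfdn5, -0.39 ± 0.20 (SE), from 106 CPM ± 30.5 to 80.9 CPM ± 6.35. With library weights, 5 prefoldin genes were called higher and Pfdn5 was called lower. Of all 24262 genes, that fit called 6254 higher, 25.8%, and 6416 lower.

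The phosducin-like and thioredoxin-like co-chaperones of TRiC had a median of 0.21 over 4 genes, which turned to -0.01 with library totals alone. Pdcl3 had the largest fold change, 0.31 ± 0.25 (SE), from 71.0 to 88.3 CPM, and Pdcl2, which was under 2 CPM in every library, the smallest, -4.08 ± 2.21 (SE). Of 7 tubulin cofactors 5 had a fold change above 0, and their median was 0.14, but with library totals alone 2 did, and the median turned to -0.06.

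Among clients, 11 of 12 tubulins had a fold change above 0 (10 with library totals alone), with a median of 0.58. Tubb3 had the largest, 1.06 ± 0.75 (SE), at 11.7 CPM ± 10.4 (SD, n = 5) in Ag and 24.2 CPM ± 6.93 (SD, n = 5) in Ag+Costim, and Tubb4a the smallest, -0.46 ± 0.51 (SE), at under 3 CPM in every library. The alpha-tubulin Tuba1b ranged over 366 to 2964 CPM in Ag and 2155 to 2812 CPM in Ag+Costim. The cytoplasmic actins had a median of 0.25, with 0.36 ± 0.29 (SE) for Actg1 and 0.13 ± 0.25 (SE) for Actb, whose sign turned to -0.07 with library totals alone and with upper quartile factors. All 11 other clients had a fold change above 0, with a median of 0.40, but with library totals alone 8 did, with a median of 0.15, and Vhl (-0.18), Stat3 (-0.07) and Wrap53 (-0.03) turned sign. Library weights called 11 of 12 tubulins, both actins and 9 of 11 other clients higher. Over all genes tested that fit called 25.8% higher.

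Of the other chaperones, Hspd1 (Hsp60) of the mitochondrial chaperonin was at 118 to 566 CPM in Ag and 576 to 890 CPM in Ag+Costim. The groups did not overlap for it, as for 1086 of all 24262 genes, 4.48%, higher in Ag+Costim. Of the genes with at least 10 CPM the share was 11.3%. Its log2 fold change was 1.0 ± 0.44 (SE, adjusted p = 0.268 by edgeR), and its partner Hspe1 had 0.47 ± 0.43 (SE). All 23 genes of the list of HSP70, HSP90 and HSP40 chaperones and their co-chaperones had a fold change above 0, with a median of 0.67, but Hspa4l (0.10) turned to -0.21 with library totals alone. Of the 23, 5 reached an unadjusted p below 0.05 by edgeR, and 2 were called by DESeq2, Hsp90b1 and Hsph1. Over all genes tested, 7.89% and 1.79% were higher by these 2 measures. Of the chaperonin-like genes outside TRiC, 3 of 4 had a fold change above 0 (2 with library totals alone), with a median of 0.26 (-0.01 with library totals alone), and 1 of the 4, Bbs12, was called by DESeq2 (adjusted p = 1.41e-04) at 3.58 CPM ± 0.46 (SD, n = 5) in Ag and 5.67 CPM ± 0.63 (SD, n = 5) in Ag+Costim. The testis paralog Cct6b was at 0.334 to 1.79 CPM in Ag and 0.520 to 1.23 CPM in Ag+Costim. Of the heat shock factors, Hsf1 had 0.19 ± 0.15 (SE), which turned to -0.08 with library totals alone, and Hsf2 -0.40 ± 0.45 (SE) on the log2 scale.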

How the data were processed

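Poly(A) RNA of sorted OT-I CD8+ T cells was sequenced in 5 Ag and 5 Ag+Costim libraries. The authors aligned reads to mm10 with HISAT2 2.1.0 and obtained gene and transcript estimated counts with StringTie 2.1.0. The deposited expected counts are coverage-based, rounded to whole numbers and not normalized, so totals are not reads. The deposited Whippet table holds 1 PSI fraction per group. Its difference, probability, complexity and entropy columns were not used, so events were judged by the difference of the PSI values alone and not by the planned probability. Identifiers and coordinates are those of GENCODE M21, entries with no gene identifier held 0.0458% to 0.308% of counts and were left out, and members and lists were chosen with earlier results of these data known.

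Genes were tested with edgeR 4.0.16 (quasi-likelihood, filterByExpr, TMM, robust dispersions, R 4.3.3), DESeq2 1.42.0 and limma 3.58.1, with Benjamini-Hochberg adjustment over all genes. Transcript usage was tested with diffSpliceDGE on transcripts with at least 10 counts in 5 libraries. Shares were compared by exact permutation tests. The tests of genes and of transcript usage were checked on simulated counts with 1 dispersion for all genes and both groups. These counts had no split among the Ag libraries, so the check does not cover that split. TPM was computed from transcript counts and lengths. Named were all 8 subunits, transcripts with a mean share of at least 5% and all of Cct6a, the largest-changing transcript and PSI event of each gene, the 5 most correlated genes, and the extremes of 5 lists. Genes of other lists, such as Hsp90b1, Hsph1, Bbs12, Cct6b, Tuba1b and the heat shock factors, were chosen after their values were seen. The study describes the libraries as biological replicates from separate mice, which the labels do not state. Alternatives were other scalings, filters, tests, a replicate block and leaving out each library.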

Additional observations from a re-analysis of the deposited data

Results flagged for a closer look

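Dixon's test of the highest and lowest of 5 libraries singled out 11 of the 84 groups of values examined, where chance flags about 1 in 20. Many of the groups are shares of 1 whole and are not independent. In TPM, Tcp1 was at 529 in Ag+Costim replicate 4, above the other 4 libraries of its group. Among shares of the summed TRiC TPM, Tcp1 held 12.2% in Ag+Costim replicate 5, below the rest of its group, Cct3 held 11.3% in Ag+Costim replicate 3, above the rest, and Cct8 held 12.7% in Ag replicate 4, below the rest.

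Among transcripts, Cct4-201 held 13.0% and Cct4-204 held 86.3% of Cct4 in Ag+Costim replicate 2, and Tcp1-201 held 24.5% and Tcp1-209 held 73.4% of Tcp1 in Ag+Costim replicate 5. Of Cct6a, transcript Cct6a-206 held 0.0191% in Ag replicate 4 and 0.00406% in Ag+Costim replicate 5, and Cct6a-207 held 0.124% in Ag+Costim replicate 1, all far under 1%. The Cct6a-201 shares of Ag replicates 4 and 5 were not singled out, since a pair of high libraries leaves no gap at the end of the range.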

How the results depend on the processing

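The count of subunits past the threshold, 0 by edgeR, stayed 0 with DESeq2, with other scalings, with no filter on low counts, without robust dispersions and without each library in turn (0 to 0), and in limma voom without weights, a fit added after seeing the data, and was 8 in limma voom with library weights. The direction of all 8 fold changes was higher in Ag+Costim in each of these fits. Subunits without overlap between groups numbered 0 by TMM, 1 with library totals alone and 2 by TPM. By these scalings 4.48%, 2.76% and 4.93% of all genes were higher without overlap. Of the genes with at least 10 CPM, 11.3%, 7.28% and 12.8% were. Over the fits that left out a library, subunits without overlap numbered 0 to 1 (1, Cct6a, without Ag replicate 5). Members with changed transcript usage numbered 1 (Cct6a), and 1 to 2 when a library was left out. Without Ag replicate 3 or without Ag replicate 4 they numbered 2, with Cct3 added, at adjusted p of 4.65e-06 and 0.0248 by edgeR's diffSpliceDGE. By the same test, the adjusted p of Cct3 was 0.0505, 0.178 and 0.0685 without Ag replicates 1, 2 and 5. It was 0.234 to 0.431 when any 1 Ag+Costim library was left out. Splicing events past a PSI difference of 0.05 numbered 2, and 0 at 0.1. The planned threshold on Whippet's probability was not run, since that column belongs to the authors' own comparison. Leaving out 1 library, the share of Cct3-206 differed by 13.7 to 16.2 percentage points and that of Cct6a-201 by -27.6 to -13.4, with replicate 4 or 5 of Ag left out giving -14.1 and -13.4. The share of Cct6a-202 missed 0.05 by the exact permutation test, at p = 0.183 to 0.190, when any Ag+Costim library was left out. With counts over the longest transcript, the share of Cct6a in the summed level differed by 1.85 percentage points against 0.324 on TPM. Depth was lowest in Ag replicate 3.

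Replicate numbers are shared by the groups, but same-numbered libraries correlated at -0.414 to 0.212 in their deviations from the group means and none correlated best with its own number, so the numbers were not taken as pairs. With a replicate block, 0 members had changed transcript usage, where Cct6a had an adjusted p of 1 by edgeR's diffSpliceDGE, and 0 subunits passed at the gene level.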
